A study of Lithobates pipiens with 72 samples.

Results

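Tadpoles of the northern leopard frog (Lithobates pipiens, also called Rana pipiens) kept for 96 h in 20 mg/L IMX-101 were compared with tadpoles kept in clean water. IMX-101 is an insensitive-munition explosive, a mixture of dinitroanisole (DNAN), nitrotriazolone (NTO) and nitroguanidine (NQ). All 4 libraries labelled IMX-101 20 mg/L and all 4 labelled IMX-101 control were taken, 8 of the 72 libraries of the series, which also holds TNT, NQ and MeNQ exposures. Each library was a pool of 5 whole tadpoles from 1 beaker, and the beaker was the unit of exposure.

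Control tadpoles received dechlorinated tap water. Exposed tadpoles received the same water with IMX-101 dissolved directly, without a carrier, and adjusted to a neutral pH because NTO is acidic. All tadpoles came from eggs of a commercial supplier and were aged 7 to 10 d when exposure began. Doses are nominal. RNA was pooled after it had passed integrity and purity limits, per the labels' protocols, and the library kit was stranded and selected poly-A RNA. The measured values are Salmon estimated counts per transcript, and each transcript carries the name of its closest Xenopus protein. Levels are in CPM, counts per 1000000 of the TMM-scaled library total. A transcript was called changed at a Benjamini-Hochberg adjusted p under 0.05 over the 12542 transcripts tested, by the quasi-likelihood test of edgeR. Each change is given on the log2 scale, relative to the control and ± its standard error, with 4 libraries per group. Nothing in the labels says that beakers were exposed on separate occasions, so the p-values measure the spread between these pools.

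The control and 10 mg/L libraries were sequenced in 2 runs each, and the 20 and 40 mg/L libraries in 1 run each, with another run-name prefix and another lane. The run set and the step from control to 20 mg/L therefore cannot be told apart. The change or level at 10 mg/L is set beside most named transcripts because that group shares the runs of the control. For some transcripts the level at 40 mg/L is also given, because that group shares the runs of 20 mg/L. The doses share the control libraries. Totals were 13.7 to 18.0 M counts in the control, 11.3 to 14.2 M at 10 mg/L, 5.57 to 6.92 M at 20 mg/L and 5.76 to 7.70 M at 40 mg/L. The 20 mg/L libraries hold fewer counts, and counting error is larger there.

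Animals clear foreign compounds in steps. Cytochrome P450 enzymes and reductases first modify a molecule, transferases then attach glutathione or a sugar to it, and efflux pumps export it. The regulator NRF2, held down by KEAP1, raises many of these genes together with genes that make glutathione. A tadpole of this age still divides its cells rapidly and carries larval globins, larval skin with mucus glands, and pigment cells.

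At 20 mg/L, 654 of the 12542 transcripts (5.21%) were called, 334 higher (2.66%) and 320 lower (2.55%). The changes were mostly small. The median size among called transcripts was 0.60 on the log2 scale, and 126 of them exceeded 2-fold, 54 up and 72 down. The median over all transcripts tested was -0.04. All 4 exposed libraries lay above all 4 controls in 728 transcripts (5.8%) and below them in 892 (7.11%). The count of calls changed when 1 library was left out. It was 421, 538, 713 and 344 without control A, B, C and D. Without 20 mg/L A, B, C and D it was 721, 317, 426 and 327. A fit with fewer libraries also has less power. The 10 mg/L comparison called 124 transcripts (0.989%), 90 higher (0.718%) and 34 lower (0.271%), against 9.97% at an unadjusted p under 0.05. That count ran from 44 to 98 with 1 library left out, and was 79, 67 and 72 without control A, B and D and 54, 44 and 81 without 10 mg/L A, B and C. At 40 mg/L, 942 (7.51%) were called, 481 higher (3.84%) and 461 lower (3.68%). Between 20 and 10 mg/L only 3 transcripts (0.0239%) were called, all lower at 20 mg/L, against 1199 (9.56%) at an unadjusted p under 0.05. All 4 libraries at 20 mg/L lay above all 4 at 10 mg/L in 2.41% of transcripts and below them in 3.84%. Without 20 mg/L A, 20 transcripts were called between these doses, 6 higher and 14 lower. Between 40 and 20 mg/L, 38 (0.303%) were called.

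**Figure D1:**
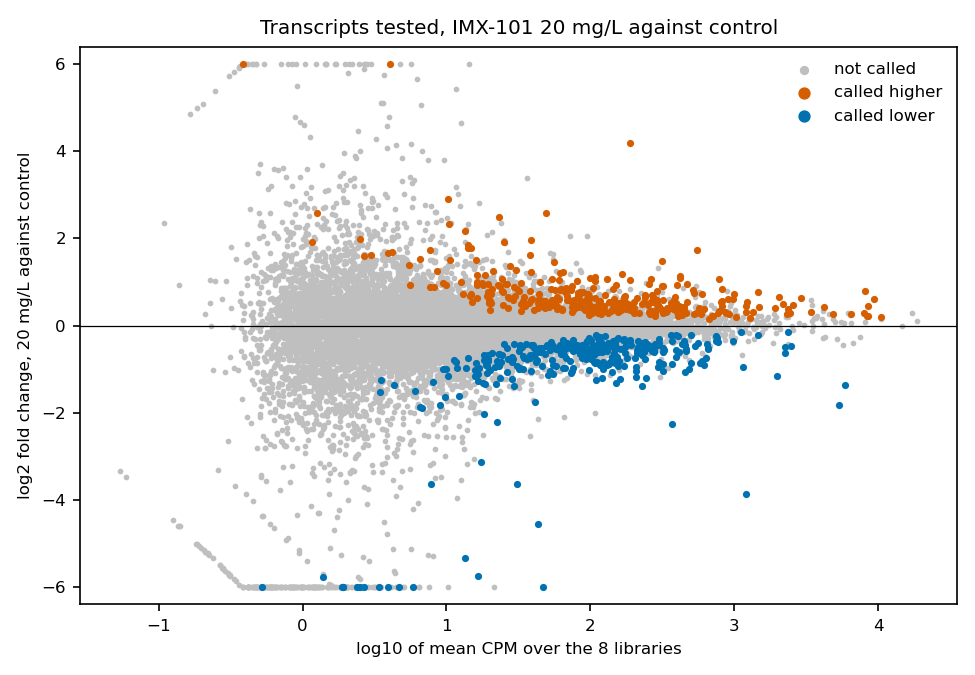
Each point is 1 of the transcripts tested, with the log10 of its mean CPM over the 8 libraries on the x axis and its log2 fold change at 20 mg/L against the control on the y axis. Values beyond 6 are drawn at the edge, 4 transcripts at 0 in both groups are left out, and the 654 called transcripts are coloured, most of them within 2-fold of the control.

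The libraries carried RNA of the organs a whole tadpole should hold. In the control, muscle transcripts summed to 26349 to 34842 CPM, digestive enzymes to 7949 to 12532, collagens and matrix to 24233 to 31654, lens crystallins to 1365 to 1711 and nervous system transcripts to 855 to 924. At 20 mg/L muscle summed to 36003 to 39414 CPM, above every control, and lens crystallins to 1984 to 2335, also above every control. Red blood cell transcripts summed to 7556 to 11219 CPM in the control and 2085 to 3310 at 20 mg/L, without overlap, and a single transcript, hemoglobin alpha-3, made up most of that sum. In whole-body RNA, fewer cells of a type and less RNA per cell cannot be told apart.

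Among called transcripts with a specific protein name, no overlap and a mean of at least 1 CPM, a cytochrome P450 gave the largest rise. A transcript named only cytochrome P450 stood at 25.0, 15.1, 12.9 and 25.2 CPM in controls A to D and at 337, 381, 566 and 157 CPM in the 20 mg/L libraries A to D. Every exposed library was far above every control, with D the lowest of them. The mean was 18.4-fold higher, a change of 4.20 ± 0.46 (adjusted p = 0.000227). The same transcript rose at 10 mg/L by 3.52 ± 0.45 (adjusted p = 0.00173), and at 40 mg/L it stood at 173 to 509 CPM. The levels at 20 and 10 mg/L were not called different (0.68 ± 0.40, adjusted p = 0.658).

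Cytochrome P450 2H2, a family member that metabolises drugs, had 16.8, 14.1, 18.9 and 13.04 CPM in the control and 33.1, 70.0, 64.8 and 78.7 CPM at 20 mg/L. Exposed library A was the lowest of its group and still above all controls. The change was 1.97 ± 0.26 (adjusted p = 0.000764), beside 1.22 ± 0.25 at 10 mg/L (adjusted p = 0.031). The rarer of 2 transcripts named cytochrome P450 2K1-like had 12.9, 6.98, 11.8 and 10.2 CPM in the control and 56.0, 37.9, 36.3 and 28.1 CPM at 20 mg/L. Its change was 1.92 ± 0.28 (adjusted p = 0.00184), the same size as at 10 mg/L (1.92 ± 0.28, adjusted p = 0.00521). These 3 are among the 12 largest rises, which were picked among transcripts whose groups did not overlap.

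Of 27 P450 names in the table, 20 were tested, 9 were called higher and none lower at 20 mg/L, with a median change of 0.27. A name with several transcripts is represented in such counts by the one with the highest mean count. All list counts at 20 mg/L stand beside the 2.66% of all transcripts tested called higher and the 2.55% called lower. The 10 mg/L group had 4 of the 20 higher and the 40 mg/L group 10. Cytochrome P450 4B1-like, an abundant member, rose by 0.82 ± 0.14 (adjusted p = 0.00508), from 341 to 433 CPM in the control to 587 to 741 CPM, and by 0.65 ± 0.14 at 10 mg/L (adjusted p = 0.0499). The 2J2 homeolog, whose mammalian counterpart oxidises arachidonic acid, rose by 0.87 ± 0.16 (adjusted p = 0.00759), beside an uncalled 0.58 ± 0.16 at 10 mg/L. Its call was lost with only the 8 libraries compared in the fit (adjusted p = 0.0638). The P450 2C20-like transcript rose by only 0.37 ± 0.07 (adjusted p = 0.0105), and by the same 0.37 ± 0.07 at 10 mg/L. The remaining called members, named 3A29-like, 2D15-like, 2F2-like and the commoner 2K1-like, changed by 0.29, 0.76, 0.37 and 1.01, beside 0.23, 0.36, 0.25 and 0.53 at 10 mg/L, none called there. In fits that leave out 1 library, 20 mg/L D ended all of these calls, control D and 20 mg/L C all but 3A29-like, and 20 mg/L B all but 2F2-like. Control A ended those of 2D15-like and 2K1-like, control B those of 3A29-like and 2F2-like, and control C that of 2F2-like. Adjusted p ran from 0.0109 to 0.123 over these fits. A 2G1-like transcript, one of 4 of that name, had 29.9 to 49.6 CPM in the control and 38.4 to 62.3 CPM at 20 mg/L and was not called (0.26 ± 0.21, adjusted p = 0.617). Transcripts that share a name may be isoforms or close copies between which Salmon divides reads, so single values of such names are uncertain.

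Of 22 transcripts tested in a list of carbonyl, aldehyde and quinone reductases, 6 were called higher and none lower. The median was 0.20 with 14 positive changes, and 4 were called higher at 10 mg/L. The list was drawn up by name and also holds pirin, aldehyde dehydrogenase 2 and epoxide hydrolase 1-like, which are not reductases. The 3-alpha-hydroxysteroid dehydrogenase, an aldo-keto reductase, had 576, 601, 579.9 and 617 CPM in the control and 1239, 938, 1082 and 970.5 CPM at 20 mg/L. All exposed libraries were well above the narrow range of the controls. It rose by 0.83 ± 0.08 (adjusted p = 7.46e-05), beside 0.78 ± 0.08 at 10 mg/L (adjusted p = 0.00022). Pirin, an NRF2 target in human cells, rose from 147 to 204 CPM in the control to 340.1 to 377 CPM, a change of 1.07 ± 0.12 (adjusted p = 0.000227). Its change at 10 mg/L was 0.89 ± 0.11 (adjusted p = 0.00185). Prostaglandin reductase 1, which reduces reactive lipid aldehydes and eicosanoids, rose by 0.96 ± 0.10 (adjusted p = 0.000227) and carbonyl reductase 1-like by 1.03 ± 0.15 (adjusted p = 0.00148). Their changes at 10 mg/L were 0.60 ± 0.10 and 0.99 ± 0.15. Mitochondrial aldehyde dehydrogenase 2 (0.32 ± 0.08, adjusted p = 0.027) and epoxide hydrolase 1-like (0.37 ± 0.10, adjusted p = 0.0409) rose least, beside uncalled changes of 0.20 and 0.31 at 10 mg/L. Leaving out control A or D, or 20 mg/L B, C or D, ended both calls, and control B or 20 mg/L A also the second, with adjusted p of 0.025 to 0.104 and 0.023 to 0.126 over the 8 fits.

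Of 11 NRF2 and glutathione transcripts tested, 2 were called higher and none lower, with a median of 0.21, and the same 2 were called at 10 mg/L. The cystine/glutamate transporter, which brings in cystine for glutathione synthesis, had 8.10, 7.22, 5.10 and 5.01 CPM in the control and 25.6, 20.2, 25.1 and 17.2 CPM at 20 mg/L. Each exposed library was more than 2-fold above the highest control. The change of 1.79 ± 0.20 (adjusted p = 0.000227) stood beside 1.62 ± 0.19 at 10 mg/L (adjusted p = 0.00144). Apoptosis-inducing factor 2-like, an oxidoreductase, rose from 71.5 to 130.2 CPM to 186 to 282 CPM, by 1.18 ± 0.17 (adjusted p = 0.00177), with 1.12 ± 0.17 at 10 mg/L. KEAP1, the inhibitor of NRF2, had 147 to 162 CPM in the control and 176 to 187 CPM at 20 mg/L and was not called (0.21 ± 0.07, adjusted p = 0.117), though its groups did not overlap. Glutathione peroxidase 3 was not called either (0.31 ± 0.10, adjusted p = 0.105).

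Among enzymes that attach glutathione or glucuronic acid, 3 of 17 were called higher (against 2.66% of all transcripts tested) and none lower. The median was 0.21, and 3 were called higher at 10 mg/L. Glutathione S-transferase alpha 1 had 199, 209, 213 and 247 CPM in the control and 348, 292, 304 and 315 CPM at 20 mg/L. The groups were apart by a gap of similar size to the spread of the controls. Its change was 0.54 ± 0.07 (adjusted p = 0.00095), beside 0.49 ± 0.07 at 10 mg/L (adjusted p = 0.00467). Glutathione S-transferase kappa 1 rose by 0.36 ± 0.07 (adjusted p = 0.00613). UDP-glucuronosyltransferase 1-1-like changed by 0.38 ± 0.08 (adjusted p = 0.0178), and leaving out 20 mg/L B or C ended its call (adjusted p of 0.022 to 0.0597 over the 8 fits). At 10 mg/L they changed by 0.31 ± 0.07 and 0.40 ± 0.08, both called.

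Of 16 efflux transporters tested, 2 were called higher (against 2.66% of all transcripts tested), and the list's median was -0.06. Multidrug resistance protein 1-like, the pump known as P-glycoprotein, had 175, 151, 190.1 and 150.3 CPM in the control and 545, 291, 507 and 510.2 CPM at 20 mg/L. Library B was the lowest of the exposed group and above all controls. The change was 1.48 ± 0.20 (adjusted p = 0.00101), close to the 1.41 ± 0.20 at 10 mg/L (adjusted p = 0.00437). Multidrug and toxin extrusion protein 2-like, which exports organic cations, rose by 1.06 ± 0.19 (adjusted p = 0.00537), from 33.2 to 49.8 CPM to 63.9 to 96.7 CPM, and was not called at 10 mg/L (0.50 ± 0.19, adjusted p = 0.329). The difference between these 2 doses was not called for it (0.56 ± 0.19, adjusted p = 0.422).

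**Figure D2:**
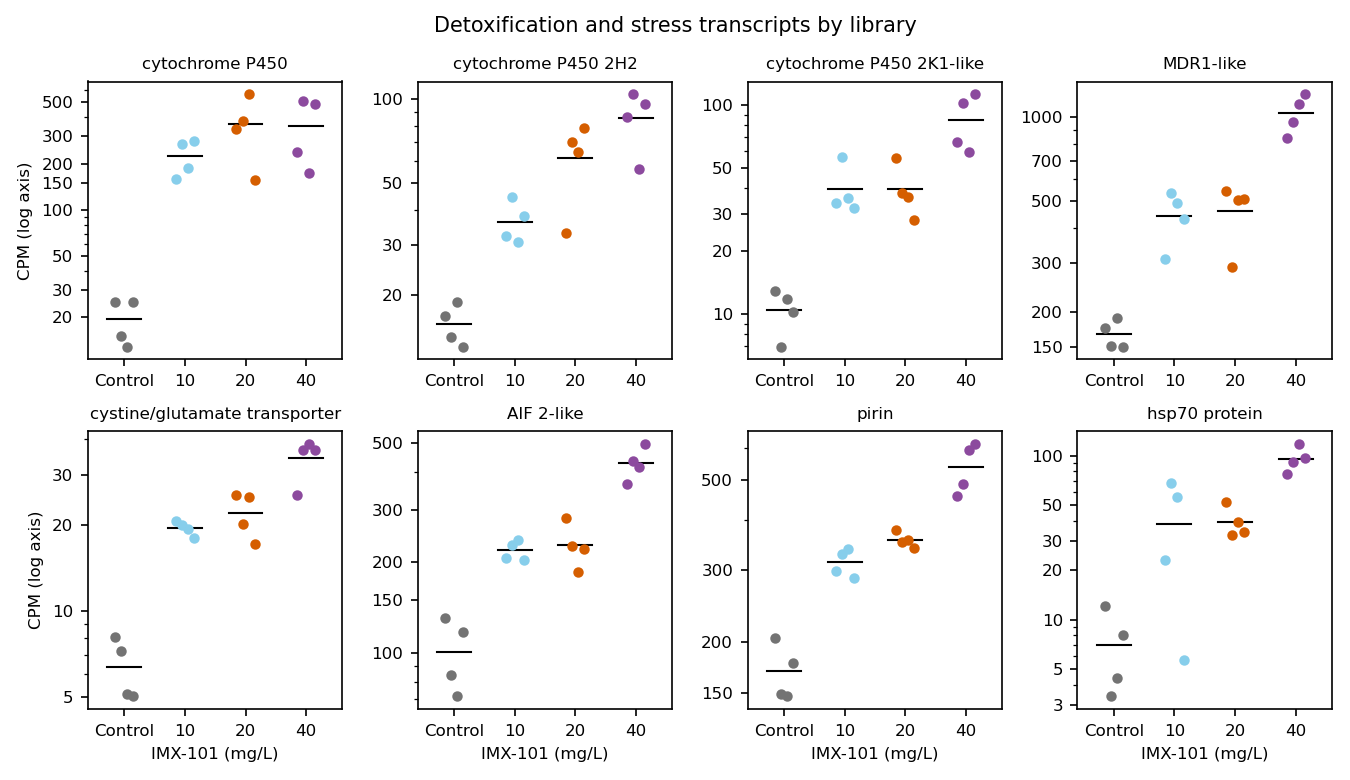
Each panel shows 1 transcript, with the group on the x axis, the TMM-scaled CPM of each library on a log y axis, and a bar at the group mean. MDR1-like is multidrug resistance protein 1-like and AIF 2-like is apoptosis-inducing factor 2-like, and in all 8 panels the 4 libraries at 20 mg/L lie above the 4 controls, near those at 10 mg/L in most.

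Ferritin heavy chain (Fth1), which stores iron and is an NRF2 target in mammals, was among the most abundant transcripts. It had 7505, 7787, 7260.1 and 7287 CPM in the control and 11269, 13145, 10254 and 10534 CPM at 20 mg/L. All exposed libraries were above all controls, a rise of 0.60 ± 0.08 (adjusted p = 0.000727), beside 0.51 ± 0.08 at 10 mg/L. It was the 1 call among 6 iron-handling transcripts, and serotransferrin-B was not called (0.25 ± 0.09, adjusted p = 0.151).

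The stress chaperone hsp70 had 12.1, 3.40, 4.37 and 8.10 CPM in the control and 52.1, 32.7, 39.1 and 34.1 CPM at 20 mg/L, a mean 5.63-fold higher. The change was 2.49 ± 0.58 (adjusted p = 0.025). The 10 mg/L libraries were uneven, at 23.0, 68.0, 55.9 and 5.68 CPM, and the change of 2.44 ± 0.58 was not called (adjusted p = 0.0696). At 20 mg/L the call was lost without control B, C or D or 20 mg/L B, C or D (adjusted p of 0.0307 to 0.067 over the 8 fits). All exposed libraries were above all controls, but the 12 largest rises, hsp70 among them, were picked for that property. Hsp70 was the only call among 28 chaperones tested (3.57%, against 5.21% of all transcripts tested), with a list median of -0.05. Heat shock protein beta-2 had 0.802 to 1.25 CPM in the control and 2.01 to 2.93 CPM at 20 mg/L and was not called (1.27 ± 0.40, adjusted p = 0.0871). None of 4 endoplasmic reticulum stress transcripts was called, and none of 9 immediate early genes, among which ATF-3-like had 3.15 to 10.9 CPM in the control and 13.6 to 27.4 CPM at 20 mg/L (1.36 ± 0.40, adjusted p = 0.0641).

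Other transcripts among the 12 largest rises were of low abundance. A collagen alpha-1(VII) chain-like transcript, isoform X3, had 3.66, 2.72, 2.33 and 0.927 CPM in the control and 8.49, 14.1, 21.1 and 29.3 CPM at 20 mg/L. It rose by 2.91 ± 0.53 (adjusted p = 0.00616), while at 10 mg/L it had 1.12 to 2.48 CPM and at 40 mg/L 1.58 to 6.13 CPM, neither called against the control. Isoform X1 of the same name moved the other way, from 38.0 to 52.2 CPM to 10.8 to 34.4 CPM, without a call (-1.02 ± 0.33, adjusted p = 0.0985), and reads may be divided among the 3 transcripts of that name. Ankyrin repeat domain 37, which responds to hypoxia in mammals, had 8.25, 3.89, 8.23 and 6.24 CPM in the control and 33.8, 20.2, 14.9 and 23.2 CPM at 20 mg/L. Its rise was 1.79 ± 0.32 (adjusted p = 0.00579), beside an uncalled 1.37 ± 0.32 at 10 mg/L. Zinc transporter 8 rose by 1.51 ± 0.25 (adjusted p = 0.0032), from 7.23 to 10.1 CPM to 19.7 to 30.9 CPM, beside 0.70 ± 0.24 at 10 mg/L. These 3 rises were called in all 8 fits with 1 library left out. With the deepest run of each library in place of the sum of its runs, the isoform X3 call was lost (2.78, adjusted p = 0.16) and isoform X1 was called lower (-1.28, adjusted p = 0.0416).

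Calls of 4 further rises depended on single libraries. The kal1 protein (anosmin, an extracellular matrix protein) had 0.494 to 1.53 CPM in the control and 2.88, 3.25, 3.08 and 6.75 CPM at 20 mg/L, a change of 2.00 ± 0.45 (adjusted p = 0.02). PDZ and LIM domain protein 5 isoform X13 rose by 1.69 ± 0.38 (adjusted p = 0.02), from 1.17 to 2.40 CPM to 4.40 to 7.34 CPM. This isoform is 1 of 2 transcripts of its name, between which reads may be divided. A nose resistant to fluoxetine protein 6-like transcript rose by 1.63 ± 0.36 (adjusted p = 0.02), from 1.05 to 1.68 CPM to 2.16 to 6.01 CPM. None of them overlapped between the groups, and their changes at 10 mg/L were 1.04 to 1.06, uncalled. Control D and 20 mg/L D each ended all 3 calls when left out, as did control B for kal1 and the fluoxetine protein, 20 mg/L B for PDZ and LIM domain protein 5 and 20 mg/L C for the fluoxetine protein. Adjusted p ran from 0.0171 to 0.0796, 0.0252 to 0.0642 and 0.012 to 0.0635. The rarer of 2 pulmonary surfactant-associated protein A-like transcripts rose by 2.33 ± 0.63 (adjusted p = 0.0471), from 2.40 to 4.02 CPM to 9.35 to 33.4 CPM, beside an uncalled 1.799 ± 0.61 at 10 mg/L. That call held in 1 of the 8 fits, the one without 20 mg/L A (adjusted p of 0.0405 to 0.138).

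Among 37 DNA replication names, 30 were tested, and 16 were called lower, against 2.55% of all transcripts tested. None was called higher, and the median was -0.67 with 28 of the 30 negative. The median at 10 mg/L was -0.41 with 1 call, and 20 were lower at 40 mg/L. In 18 of the 30, all exposed libraries lay below all controls, against 7.11% of all transcripts tested. MCM7, a subunit of the helicase that opens DNA, had 736, 695, 710.1 and 899 CPM in the control and 484, 425, 429 and 379 CPM at 20 mg/L. The highest exposed library was well below the lowest control, a fall of 0.82 ± 0.13 on the log2 scale (adjusted p = 0.00304). Its change at 10 mg/L was -0.41 ± 0.13 without a call, with 519 to 619.7 CPM there.

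Replication factor C subunit 1, which loads the sliding clamp, fell by 0.84 ± 0.10 (adjusted p = 0.000555). It had 141, 140.1, 169 and 174 CPM in the control and 94.5, 79.0, 84.6 and 89.9 CPM at 20 mg/L. It was the 1 replication transcript also called at 10 mg/L (-0.47 ± 0.10, adjusted p = 0.044). The catalytic subunit of DNA polymerase epsilon, which copies the leading strand, fell by 0.90 ± 0.12 (adjusted p = 0.00113), from 164 to 177 CPM to 75.8 to 104 CPM. PCNA, the clamp itself, fell by 0.88 ± 0.18 (adjusted p = 0.0122), from 393 to 592 CPM to 212 to 322 CPM. The mcm2-like helicase subunit fell by 1.32 ± 0.27 (adjusted p = 0.0133) and the origin recognition complex subunit 1-like by 0.92 ± 0.17 (adjusted p = 0.00593). Their 10 mg/L changes were -0.50 ± 0.12, -0.49 ± 0.18, -0.43 ± 0.27 and -0.41 ± 0.16, none called.

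Dnmt1, which restores DNA methylation behind the fork, fell by 0.73 ± 0.11 (adjusted p = 0.00161), from 466 to 517 CPM to 259 to 329.9 CPM. Primase, which starts new strands, fell by 0.33 ± 0.07 (adjusted p = 0.0117). Neither was called at 10 mg/L, where they changed by -0.41 and -0.21. These falls, and those of the 6 transcripts before them, were called in all 8 fits with 1 library left out. With only the 8 libraries compared in the fit, the mcm2-like, origin recognition complex and primase calls were lost (adjusted p = 0.0592, 0.0528 and 0.0564). CDC6, which loads the helicase, had 66.3 to 94.4 CPM in the control and 58.0, 32.8, 34.6 and 32.2 CPM at 20 mg/L, with library A apart. Its fall of 0.94 ± 0.21 (adjusted p = 0.0215) was lost without control D or 20 mg/L B, C or D (adjusted p of 0.00371 to 0.0747). The ribonucleotide reductase subunit RRM1, which makes deoxynucleotides, fell by 0.61 ± 0.14 (adjusted p = 0.0227), which lost its call without 20 mg/L B or D (0.00697 to 0.0761). These 2 changed by -0.35 and -0.45 at 10 mg/L, uncalled. DNA polymerase alpha, which extends primers, fell by 0.42 ± 0.10 (adjusted p = 0.0218) and was not called without control A or C or 20 mg/L B or D (0.0188 to 0.069). It changed by -0.40 ± 0.10 at 10 mg/L, uncalled. The CDC6, RRM1 and DNA polymerase alpha calls were also lost with only the 8 libraries compared in the fit (adjusted p = 0.0755, 0.0709 and 0.0551). MCM10 stood at 20.4 to 34.1 CPM in the control and 5.99 to 15.3 CPM at 20 mg/L and was not called (-1.19 ± 0.37, adjusted p = 0.0798).

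**Figure D3:**
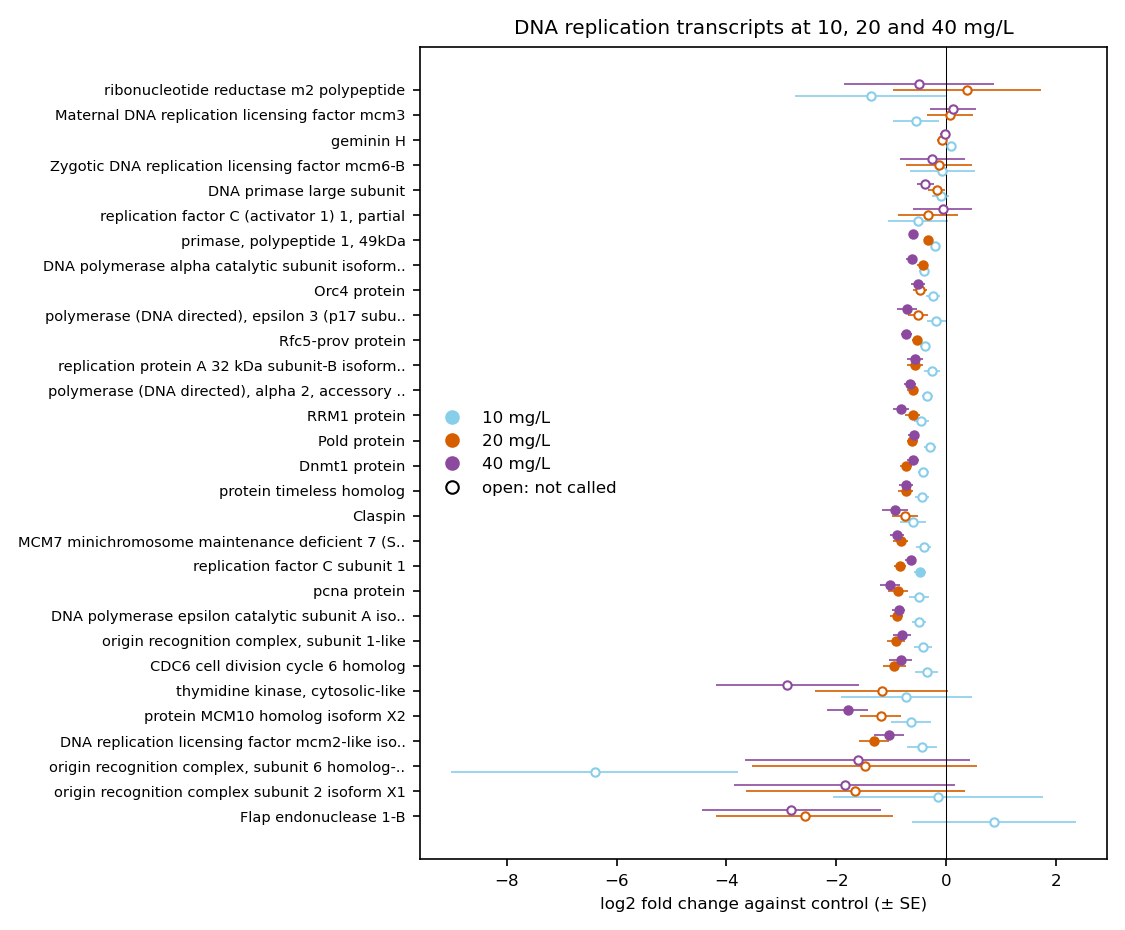
Log2 fold changes against the control (x axis, ± standard error) of the 30 DNA replication transcripts tested at 10, 20 and 40 mg/L, in the order of the change at 20 mg/L. Filled points passed the adjusted test and open points did not, 16 of the 30 are filled at 20 mg/L, all below 0, and the widest bars belong to transcripts that were not called.

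Of 38 transcripts of mitosis and the cell cycle, 1 was called lower and none higher, a share near that of all transcripts called lower (2.55%), with a median of -0.24. The called transcript, kinetochore-associated protein 1, fell by 0.56 ± 0.08 (adjusted p = 0.00101), from 122 to 140.0 CPM to 83.5 to 94.4 CPM, and was also called at 10 mg/L (-0.41 ± 0.08, adjusted p = 0.0187). No transcript of the p53 and DNA damage list was called among 6 tested. The tumour suppressor p53 had 343 to 415 CPM in the control and 314 to 357 CPM at 20 mg/L (-0.15 ± 0.07, adjusted p = 0.205). The uncalled Mdm2 transcript, an inhibitor of p53, had 1.93, 3.15, 0.219 and 16.9 CPM in the control and 9.09 to 19.0 CPM at 20 mg/L.

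Of 30 ribosome assembly factors tested, 8 were called lower and 1 higher, with a median of -0.43, against 1 lower at 10 mg/L and 2 lower and 1 higher at 40 mg/L. CCAAT/enhancer-binding protein zeta, a nucleolar assembly factor, had 177, 163, 159 and 180.3 CPM in the control and 139, 126, 121 and 116 CPM at 20 mg/L. Its groups did not overlap, and the fall of 0.43 ± 0.09 (adjusted p = 0.0133) was called in all 8 fits with 1 library left out. Its change at 10 mg/L was -0.17 ± 0.09 and at 40 mg/L -0.09 ± 0.09, neither called. The rRNA-processing protein EBP2, the NIP7 homolog and transducin (beta)-like 3, all members of the machinery that processes ribosomal RNA, fell by 1.00 ± 0.24, 0.97 ± 0.25 and 1.26 ± 0.34 (adjusted p = 0.0297, 0.0374 and 0.0482). Their controls split, with A and D high and B and C low. Transducin (beta)-like 3 had 183, 100.7, 89.3 and 248 CPM there and 95.0, 53.6, 62.6 and 48.0 CPM at 20 mg/L, so that library A exceeded control C. Their changes at 10 mg/L were -0.39, -0.37 and -0.52, none called. All 3 calls were lost without control A or D or 20 mg/L B, C or D (adjusted p of 0.0148 to 0.101, 0.0194 to 0.125 and 0.0249 to 0.167). DDB1- and CUL4-associated factor 13, also of this machinery, fell by 1.21 ± 0.28 (adjusted p = 0.0217), and lost its call without control A or D or 20 mg/L B or C (0.0127 to 0.0724). At 10 mg/L it changed by -0.74 ± 0.27, uncalled. Nol11 fell by 0.59 ± 0.12 (adjusted p = 0.0145) and by 0.56 ± 0.12 at 10 mg/L (adjusted p = 0.0485), and its call at 20 mg/L was lost without 20 mg/L B or D (0.00771 to 0.0529). The transcript that rose, TGF beta-inducible nuclear protein 1, changed by 0.44 ± 0.07 (adjusted p = 0.00189), from 339 to 378 CPM to 460.3 to 534 CPM, beside an uncalled 0.24 ± 0.07 at 10 mg/L.

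Transcripts of the ribosomal proteins themselves were not called lower. Of 17 cytosolic ribosomal proteins tested among 72 names, 2 were called higher (against 2.66% of all transcripts tested) and none lower, with a median of 0.15. Ribosomal protein L8 rose by 0.26 ± 0.06 (adjusted p = 0.0206), from 5213 to 6415 CPM to 6771 to 7345 CPM, beside an uncalled 0.17 ± 0.06 at 10 mg/L. Its call ended without control D or 20 mg/L B or D (0.0094 to 0.0694). The acidic ribosomal protein P0 rose by 0.19 ± 0.05 (adjusted p = 0.0425), from 8988 to 10384 CPM to 10554 to 11715 CPM. Its call was lost in all fits but those without control B or C (0.0251 to 0.125), and it changed by 0.15 ± 0.05 at 10 mg/L, uncalled. Of 17 translation factors, 2 were called higher (against 2.66% of all transcripts tested), with a median of 0.09. Initiation factor 3 subunit G-B, which helps ribosomes scan messages, rose by 0.20 ± 0.05 (adjusted p = 0.02), from 895 to 1022 CPM to 1052 to 1168 CPM. It lost its call without control D or 20 mg/L B or D (0.017 to 0.0823), and its change at 10 mg/L was an uncalled 0.13 ± 0.05.

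Among 40 splicing and RNA-binding transcripts 4 were called lower (against 2.55% of all transcripts tested) and none higher. The median was -0.15 with 16 positive changes, and none was called at 10 mg/L. The arginine/serine-rich factor 9 had 320.5, 215, 222 and 362 CPM in the control and 115, 154, 148 and 127 CPM at 20 mg/L. The highest exposed library was well under the lowest control, a fall of 1.04 ± 0.18 (adjusted p = 0.005), beside -0.43 ± 0.18 at 10 mg/L. The arginine/serine-rich factor 1 fell by 0.58 ± 0.11 (adjusted p = 0.00989), from 279 to 387 CPM to 198 to 246 CPM, beside -0.22 ± 0.11 at 10 mg/L. The call of factor 1 was lost with only the 8 libraries compared in the fit (adjusted p = 0.051). The U2AF 35 kDa subunit, which recognises the end of an intron, and serine/arginine-rich splicing factor 3 fell by 0.38 ± 0.09 and 0.50 ± 0.13 (adjusted p = 0.0298 and 0.0367). The U2AF call was lost without control A or D or 20 mg/L B, C or D (0.0332 to 0.0967), and that of factor 3 without any library but control C (0.0442 to 0.118). At 10 mg/L they changed by -0.18 and -0.15.

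Of 24 transcripts of the path that carries secreted proteins from the endoplasmic reticulum to the Golgi, 5 were called lower and none higher, with a median of -0.38, against 1 lower at 10 mg/L. Sec24D, a coat protein that packs cargo into vesicles, had 256, 258, 282 and 286 CPM in the control and 195, 180.0, 188 and 204 CPM at 20 mg/L. It fell by 0.50 ± 0.07 (adjusted p = 0.00095), and by 0.31 ± 0.07 at 10 mg/L (adjusted p = 0.0407). Tmp21, a cargo receptor, fell by 0.58 ± 0.09 (adjusted p = 0.0024) and the translocon-associated protein beta by 0.40 ± 0.06 (adjusted p = 0.00257). Neither was called at 10 mg/L (-0.25 ± 0.09 and -0.26 ± 0.06), and none of the 3 overlapped between control and 20 mg/L. ERGIC and golgi 3, another cargo receptor, fell by 0.75 ± 0.18 (adjusted p = 0.031), and leaving out control A or D or 20 mg/L C or D ended its call (0.0145 to 0.0965). Its change at 10 mg/L was -0.26 ± 0.18, uncalled.

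Of 15 mucus transcripts tested among 25 names, 3 were called lower and none higher, with a median of -0.45, and 1 was lower at 10 mg/L. Anterior gradient protein 2-B, a secretory cell protein needed for mucin folding in mice, had 1379, 1599, 1586 and 1534 CPM in the control and 749.6, 779.7, 735 and 865 CPM at 20 mg/L. The exposed level was close to 51.3% of the control, a fall of 0.96 ± 0.10 (adjusted p = 0.000142). The 10 mg/L libraries stood between, at 1109.6 to 1273 CPM (-0.39 ± 0.10, adjusted p = 0.0758). The 20 to 10 mg/L difference was -0.57 ± 0.10 and was not called (adjusted p = 0.063).

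Mucin-2, a gel-forming mucin, had 9.30, 9.69, 12.97 and 9.33 CPM in the control and 1.73, 4.51, 2.20 and 2.76 CPM at 20 mg/L. Every exposed library was more than 2-fold below every control, a fall of 1.88 ± 0.34 (adjusted p = 0.00613). The fall at 10 mg/L was 1.69 ± 0.34 (adjusted p = 0.0256), with 2.53 to 3.97 CPM. A mucin-2-like transcript, 1 of 3 of that name, fell by 1.14 ± 0.27 (adjusted p = 0.0248), from 54.1 to 91.5 CPM to 22.9 to 42.1 CPM. That call ended without control B or C or 20 mg/L A or B (0.0306 to 0.0833), and at 10 mg/L the change was -1.12 ± 0.26 (adjusted p = 0.066). The mucin-5B-like and mucin-5AC-like transcripts had lower means at 20 mg/L (-1.04 ± 0.33 and -0.86 ± 0.29) without a call (adjusted p = 0.0919 and 0.109).

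Surfactant proteins, collagen-like lectins and lipoproteins of wet surfaces, moved in both directions. The D-like lectin had 3410.2, 2188, 2786 and 2626 CPM in the control and 1385, 1167, 1075 and 1309.5 CPM at 20 mg/L, without overlap. It fell by 1.16 ± 0.14 (adjusted p = 0.000471), beside -0.47 ± 0.14 at 10 mg/L (adjusted p = 0.147). Surfactant protein C, a lipoprotein of the lung film, had 361, 446, 418 and 346 CPM in the control and 661, 650.2, 726 and 624 CPM at 20 mg/L. It rose by 0.76 ± 0.10 (adjusted p = 0.00095), and by 0.59 ± 0.10 at 10 mg/L (adjusted p = 0.0135). The more abundant surfactant protein A-like transcript rose by 0.65 ± 0.10 (adjusted p = 0.00319), beside 0.41 ± 0.10 at 10 mg/L. The surfactant protein D precursor rose by 0.55 ± 0.15 (adjusted p = 0.0469), from 127 to 164 CPM to 176 to 284 CPM, and was not called without control A, C or D or 20 mg/L B or D (0.036 to 0.136). Its change at 10 mg/L was close, 0.48 ± 0.15, without a call. Of 5 tested, 3 were called higher and 1 lower.

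**Figure D4:**
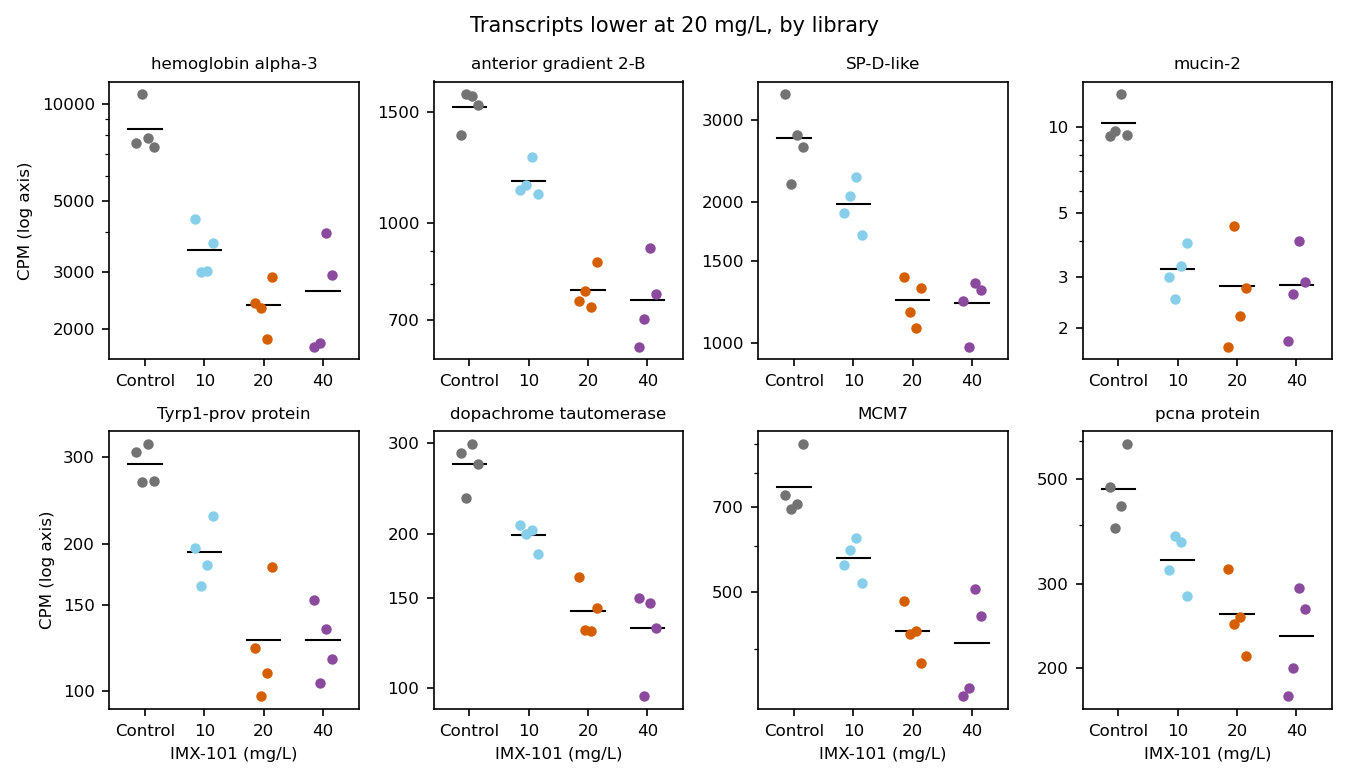
Each panel shows 1 transcript that fell, with the group on the x axis, the TMM-scaled CPM of each library on a log y axis, and a bar at the group mean. SP-D-like is the D-like surfactant lectin, and in all 8 panels the 4 libraries at 20 mg/L lie below the 4 controls, with the 10 mg/L mean in between.

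Hemoglobin alpha-3 and the regulator Krueppel-like factor 1 fell. They were the 2 calls among 7 tested of 13 red blood cell names, none of which was called higher, with a median of -1.82, which did not change when transcripts at 0 were set to their bound. Hemoglobin subunit alpha-3 had 7568, 10739.7, 7866 and 7373 CPM in the control and 2411, 2322, 1859 and 2908 CPM at 20 mg/L. Control B was the highest, and the lowest control was more than 2-fold above the highest exposed library. The fall was 1.82 ± 0.25 (adjusted p = 0.00101), to 28.3% of the control mean. It fell by 1.25 ± 0.24 at 10 mg/L (adjusted p = 0.0243), with 3002 to 4386 CPM, and at 40 mg/L the level was 1764 to 3974 CPM.

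Krueppel-like factor 1, the transcription factor that drives globin genes in mammals, had 6.79, 4.14, 5.76 and 4.76 CPM in the control and no counts in any 20 mg/L library. Its 353 control counts against a floor of 3 counts over the exposed group give a level at least 46.6-fold lower (adjusted p = 0.00753). It had 1.76 to 5.31 CPM at 10 mg/L. At 40 mg/L, in the same run set as 20 mg/L, it had 5.05, 0, 5.57 and 2.89 CPM, so 3 of the 4 libraries at the higher dose held it. Erythrocyte membrane protein band 4.2, which anchors the red cell skeleton, had 7.10, 8.40, 9.91 and 0 CPM in the control and was at 0 throughout 20 mg/L. That is at least 53.8-fold lower, but it was not called (adjusted p = 0.111). Hemoglobin subunit beta-2-like had 151 to 408 CPM in the control and 210.2 to 369 CPM at 20 mg/L (0.37 ± 0.36, adjusted p = 0.716). Hemoglobin alpha-5 (-0.40 ± 0.39) and the erythropoietin receptor (-2.50 ± 1.16) were not called (adjusted p = 0.714 and 0.263). Globin genes are close copies of each other, and the split of reads between them is uncertain.

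Of 3 melanin transcripts tested, 2 were called lower and 1 higher. Those that fell were the enzymes. Tyrosinase-related protein 1 (Tyrp1) had 307, 267, 319.7 and 269 CPM in the control and 123, 97.6, 109 and 179.7 CPM at 20 mg/L. Library D was the highest of the exposed group and below every control, a fall of 1.19 ± 0.18 (adjusted p = 0.00177), beside -0.60 ± 0.17 at 10 mg/L (adjusted p = 0.146). Dopachrome tautomerase, another enzyme of melanin synthesis, fell by 0.95 ± 0.13 (adjusted p = 0.000981), from 234 to 299 CPM to 129 to 164 CPM, beside -0.46 ± 0.13 at 10 mg/L. The muted protein, which serves melanosome assembly in mice, rose by 0.58 ± 0.11 (adjusted p = 0.00711), with 0.21 ± 0.11 at 10 mg/L.

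Pteridine synthesis, which feeds yellow pigment cells and supplies the cofactor of aromatic amino acid hydroxylases, held 3 calls. Of 4 tested, all 3 calls were higher, with a median of 0.68, and 1 was called at 10 mg/L. GTP cyclohydrolase 1-like, the entry enzyme, had 209, 223, 248 and 210.2 CPM in the control and 406, 455, 417 and 395 CPM at 20 mg/L. The groups were widely apart, a rise of 0.91 ± 0.11 (adjusted p = 0.000548), with 0.53 ± 0.11 at 10 mg/L (adjusted p = 0.035). The recycling enzymes quinoid dihydropteridine reductase (0.30 ± 0.08, adjusted p = 0.0342) and pterin-4-alpha-carbinolamine dehydratase 2 (0.45 ± 0.12, adjusted p = 0.0401) rose less, beside uncalled changes of 0.28 and 0.38 at 10 mg/L. The call of the first was lost whichever of the 8 libraries compared was left out (0.0555 to 0.0928). That of the second was lost without control A, B or D or 20 mg/L A, B or D (0.0296 to 0.116).

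Among 6 lens crystallins tested, 5 were called higher and none lower, with a median of 0.60, and 4 were higher at 10 mg/L. Gamma-crystallin 1 isoform X2 had 674, 683, 833 and 692 CPM in the control and 1040.5, 1179, 1008 and 1163 CPM at 20 mg/L. Control C was the highest of its group and below every exposed library. The rise was 0.61 ± 0.08 (adjusted p = 0.00101), beside 0.48 ± 0.08 at 10 mg/L (adjusted p = 0.0135). Gamma-crystallin-2 rose by 0.68 ± 0.10 (adjusted p = 0.00177), beside 0.58 ± 0.10 at 10 mg/L. Some gamma-crystallins are close copies of each other, so these 5 calls may not all be independent. The other 3, named gamma-crystallin 2 isoform X2, 1-like and N-like, rose by 0.59, 0.81 and 0.42, and the last was not called without 20 mg/L B or D (0.0068 to 0.0634). At 10 mg/L they rose or changed by 0.49, 0.65 and 0.47, with the 1-like transcript uncalled. With only the 8 libraries compared in the fit, the 1-like and N-like calls at 20 mg/L were lost (adjusted p = 0.0837 and 0.0501). The beta B2-like crystallin was not called (0.26 ± 0.24, adjusted p = 0.686, and 0.73 ± 0.24 at 10 mg/L). Of 12 photoreceptor transcripts, 2 were called lower and none higher, with a median of -0.11. Opsin-5-like, a light receptor outside the visual rods and cones in birds and mammals, fell by 1.03 ± 0.16 (adjusted p = 0.00258), from 22.4 to 30.6 CPM to 10.4 to 16.1 CPM. It also fell by 0.81 ± 0.16 at 10 mg/L (adjusted p = 0.0248). Melanopsin fell by 0.79 ± 0.18 (adjusted p = 0.0245), from 12.8 to 14.7 CPM to 6.74 to 9.67 CPM. Without control B or D or 20 mg/L A, B or C it was not called (0.0381 to 0.0735), nor was it at 10 mg/L (-0.58 ± 0.18). The violet-sensitive opsin had 5.01 to 7.00 CPM in the control and 7.98 to 11.7 CPM at 20 mg/L and was not called (0.67 ± 0.21, adjusted p = 0.0883).

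Muscle transcripts moved in both directions, with 3 of 24 called higher and 3 lower and a median of 0.16. Fast skeletal troponin T, which makes contraction sensitive to calcium, had 2178, 2350.4, 2632 and 1924 CPM in the control and 3326, 3543, 3284 and 3891 CPM at 20 mg/L. It rose by 0.63 ± 0.11 (adjusted p = 0.0041), beside 0.35 ± 0.11 at 10 mg/L. Parvalbumin, a calcium buffer of fast fibres, rose by 0.96 ± 0.20 (adjusted p = 0.0127), from 238 to 427 CPM to 559.6 to 672 CPM, beside 0.57 ± 0.20 at 10 mg/L. A myosin-4-like transcript had 376, 461, 427 and 286 CPM in the control and 155, 191, 188 and 272 CPM at 20 mg/L, and fell by 0.94 ± 0.17 (adjusted p = 0.00572), beside -0.47 ± 0.17 at 10 mg/L. Its call was lost with only the 8 libraries compared in the fit (adjusted p = 0.0633). A tropomyosin isoform, 1 of 4 transcripts of its name, fell by 0.64 ± 0.09 (adjusted p = 0.0013), and by 0.47 ± 0.09 at 10 mg/L (adjusted p = 0.023). A titin-like isoform, 1 of 8 of its name, fell by 1.23 ± 0.28 (adjusted p = 0.0218), beside -1.02 ± 0.28 at 10 mg/L, and lost its call without control A or D or 20 mg/L C or D (0.0257 to 0.0781). Alpha cardiac actin rose by 0.46 ± 0.12 (adjusted p = 0.0376), from 5632 to 8761 CPM to 9170.3 to 10241 CPM, beside an uncalled 0.28 ± 0.12 at 10 mg/L. It lost its call without control A, B or D or 20 mg/L B, C or D (0.00984 to 0.116). The abundant alpha skeletal actin was not called (0.30 ± 0.11, adjusted p = 0.13), although its exposed libraries (18117 to 19784 CPM) lay above its controls (12634 to 18039.6 CPM).

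Of 66 collagen and matrix transcripts tested, 3 were called lower and none higher, against 2.55% of all transcripts called lower. The median was -0.19 and 22 of the 66 changes were positive, against no call at 10 mg/L and 11 lower at 40 mg/L. Type II collagen, the collagen of cartilage, had 2416, 2846, 2705 and 2632 CPM in the control and 1793, 1865, 1917 and 1980.2 CPM at 20 mg/L. It fell by 0.49 ± 0.06 (adjusted p = 0.000672), beside -0.28 ± 0.06 at 10 mg/L (adjusted p = 0.0519). The collagen alpha-1(III) chain-like transcript fell by 0.46 ± 0.07 (adjusted p = 0.0026), from 2609 to 3029.6 CPM to 1934 to 2137 CPM, beside -0.15 ± 0.07 at 10 mg/L. The collagen alpha-1(XIV) chain-like transcript fell by 1.32 ± 0.33 (adjusted p = 0.0325), from 21.9 to 30.8 CPM to 7.98 to 11.6 CPM, beside -0.55 ± 0.32 at 10 mg/L. It lost its call without control A, C or D or 20 mg/L B, C or D (0.0463 to 0.109). The groups did not overlap in any of the 3.

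Of 60 inflammation transcripts 3 were called higher and 1 lower (6.67%, near the 5.21% of all transcripts tested), with a median of 0.06. Nuclear factor interleukin 3 regulated, a transcription repressor of immune and circadian genes, rose by 0.67 ± 0.11 (adjusted p = 0.0032), from 66.7 to 88.2 CPM to 103 to 139 CPM, beside an uncalled 0.16 ± 0.11 at 10 mg/L. The interleukin-1 receptor type 1-like transcript rose by 0.78 ± 0.18 (adjusted p = 0.0248), from 15.3 to 20.2 CPM to 29.0 to 35.6 CPM, and was not called without control A or D or 20 mg/L B, C or D (0.033 to 0.0834). The 10 mg/L change was 0.38 ± 0.18, uncalled. Inducible nitric oxide synthase had 12.3, 14.5, 10.6 and 19.3 CPM in the control and 8.06, 6.49, 6.16 and 4.76 CPM at 20 mg/L. It fell by 1.16 ± 0.27 (adjusted p = 0.0231), beside -0.80 ± 0.26 at 10 mg/L, and was not called without control D or 20 mg/L B, C or D (0.0191 to 0.0845). Of 21 complement and coagulation transcripts 2 were called higher, against 2.66% of all transcripts tested. These were the complement C8 beta chain-like (0.55 ± 0.14, adjusted p = 0.0338) and the mannan-binding lectin serine peptidase 2 (0.56 ± 0.14, adjusted p = 0.0385). Both had 1 exposed library inside the range of the controls, and their changes at 10 mg/L were 0.57 and 0.31, uncalled. Both calls ended without control A or D or 20 mg/L B, C or D, the first also without control B and the second without control C (0.0171 to 0.11 and 0.0197 to 0.129).

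Of 26 oxidative phosphorylation transcripts 2 were called higher (7.69%, against 5.21% of all transcripts tested called), with a median of 0.12. The ATP synthase F0 subunit rose by 0.26 ± 0.04 (adjusted p = 0.00466), from 1993 to 2174 CPM to 2436 to 2655 CPM, and by 0.24 ± 0.04 at 10 mg/L (adjusted p = 0.0187). NADH dehydrogenase iron-sulfur protein 4 rose by 0.29 ± 0.06 (adjusted p = 0.0111), beside 0.30 ± 0.06 at 10 mg/L (adjusted p = 0.0243). Its call at 20 mg/L was lost with only the 8 libraries compared in the fit (adjusted p = 0.0816). Phosphofructokinase, the pacing enzyme of glycolysis, rose by 0.28 ± 0.07 (adjusted p = 0.0425), beside 0.12 ± 0.07 at 10 mg/L. It was the 1 call among 16 glycolysis transcripts (6.25%), and its call was lost without any library but 20 mg/L A (0.0434 to 0.151). The liver, digestive and nervous system lists also held 1 call each (20.0%, 8.33% and 1.54% of their members tested). These were apolipoprotein L6-like (0.80 ± 0.19, adjusted p = 0.0297), carboxypeptidase B2-like (0.49 ± 0.11, adjusted p = 0.0202) and SNAP29 (0.42 ± 0.08, adjusted p = 0.00762), which serves membrane fusion. Name patterns, not sites of expression, placed these transcripts in the lists, and they are not taken as changes of those organs. Without control A or D or 20 mg/L B or D the first and second were not called, nor the first without control B or 20 mg/L A (0.016 to 0.0964 and 0.0149 to 0.0766). At 10 mg/L the 3 changed by 0.47, 0.39 and 0.30, uncalled. All 3 calls at 20 mg/L were lost with only the 8 libraries compared in the fit (adjusted p = 0.0706, 0.0809 and 0.0528).

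Of the 46 lists described or counted here, 33 held at least 1 call at 20 mg/L and 13 held none. Of all transcripts tested, 5.21% were called. At that share a list of many members can hold 1 call, so this count is not a result about the lists. The 13 were proteasome, interferon and antigen presentation, intestinal epithelium, larval skin keratins, thyroid hormone axis, p53 and DNA damage, endoplasmic reticulum stress, circadian clock, immediate early genes, matrix metalloproteinases, fatty acid oxidation, ion and water transport, and amino acid activation.

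**Figure D5:**
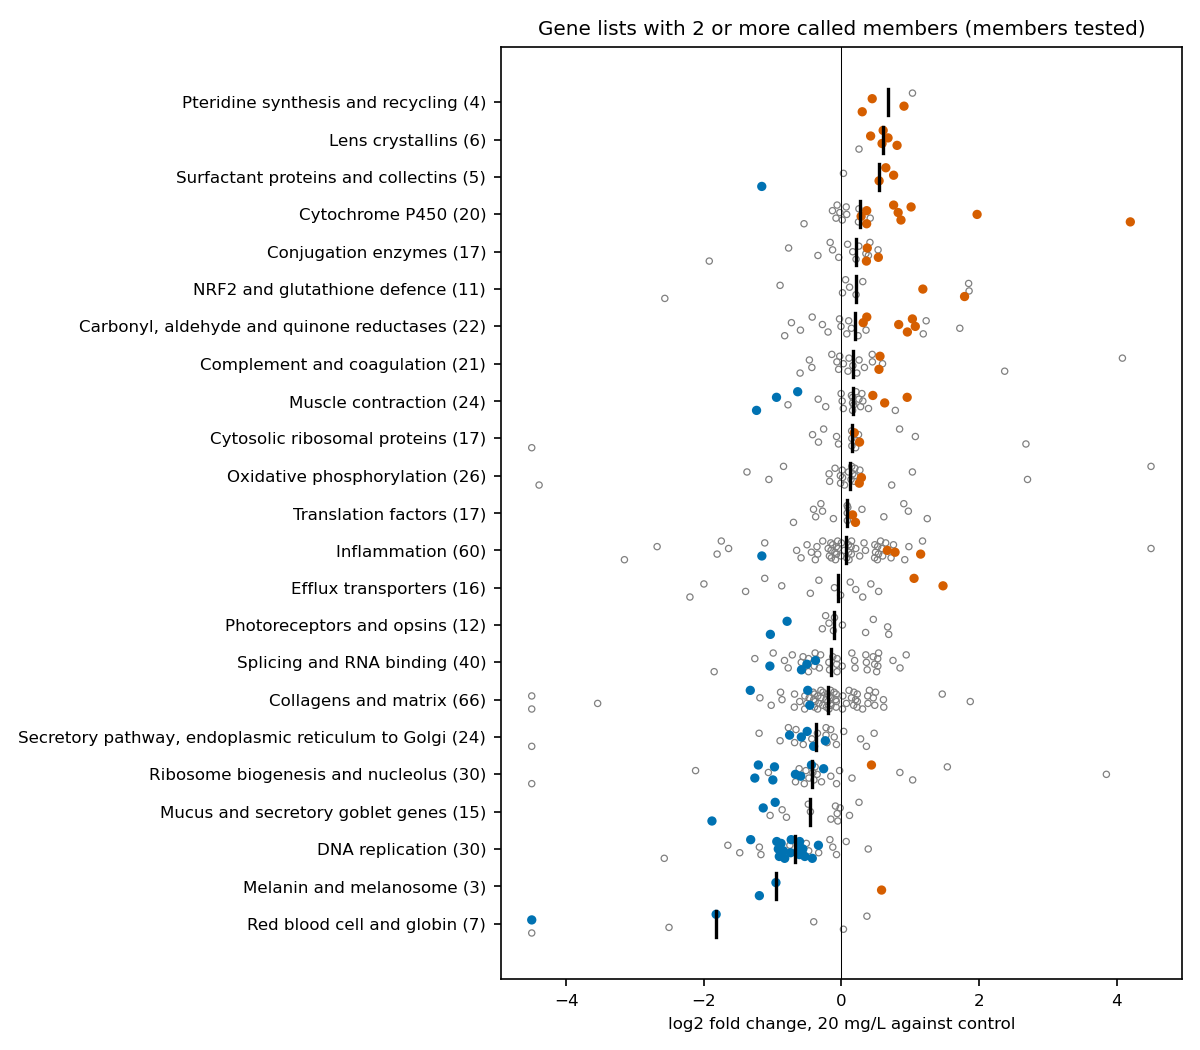
Log2 fold changes at 20 mg/L against the control (x axis) of the members of the 23 gene lists with 2 or more calls, with the number of members tested in brackets. Filled points were called higher (orange) or lower (blue), open points were not called, bars mark the list's median, values beyond 4.5 are drawn at the edge, and the medians run from 0.68 for pteridine synthesis at the top to -1.82 for red blood cell transcripts at the bottom.

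The largest falls outside these lists were of transcripts at or near 0 in the exposed libraries. In all, 206 of the transcripts tested had no counts in any 20 mg/L library, and 11 of them were called. In the other direction, 2 called transcripts had no counts in any control library. The 20 mg/L libraries hold fewer counts than the controls. Multiple PDZ domain protein isoform X10, a scaffold protein, had 15.1, 10.5, 3.42 and 17.6 CPM in the control and was at 0 in the 20 mg/L libraries (adjusted p = 0.0146). With 3 counts taken as the floor of the whole exposed group, that is at least 104-fold lower. The transcript is 1 of 4 of its name, and reads may be divided among these. It had 0, 1.34, 8.88 and 6.49 CPM at 10 mg/L and 3.81 to 13.3 CPM at 40 mg/L, so every library at the higher dose of the same run set held it. FAM198A, a Golgi protein, had 3.77 to 18.0 CPM in the control, 4.33 to 13.9 CPM at 10 mg/L and no counts at 20 mg/L, at least 77.6-fold lower (adjusted p = 0.0311). At 40 mg/L it had 8.29, 0, 0 and 8.01 CPM. Leaving out control A or D or any of the 20 mg/L libraries ended its call (0.0475 to 0.0799).

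Ubiquitin carboxyl-terminal hydrolase 36 (USP36), a nucleolar enzyme, had 4.96, 0.247, 11.9 and 2.97 CPM in the control, 4.02 to 11.6 CPM at 10 mg/L and no counts at 20 mg/L, at least 40.9-fold lower (adjusted p = 0.0258). The call was lost without 20 mg/L B, C or D (0.017 to 0.0672), and at 40 mg/L it had 0 to 3.62 CPM. The ubiquitin ligase RNF182-like had 3.77 to 6.54 CPM in the control, 1.51 to 2.32 CPM at 10 mg/L and no counts at 20 mg/L, at least 41.2-fold lower (adjusted p = 0.0418). That call was lost whichever of the 8 libraries compared was left out (0.057 to 0.0996). The transcript is 1 of 2 of its name, between which reads may be divided. The creatine transporter 1, which supplies muscle and brain with creatine, had 72.9, 66.6, 99.3 and 132 CPM in the control and 0, 0, 0 and 1.53 CPM at 20 mg/L, a change of -7.86 ± 1.31 (adjusted p = 0.00374). It had 38.1 to 60.3 CPM at 10 mg/L and 98.1, 0.986, 32.7 and 7.22 CPM at 40 mg/L, where the libraries differed widely among themselves.

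Fatty acid synthase, which makes palmitate, had 6.27, 5.37, 21.6 and 24.8 CPM in the control and 0.72, 0.722, 1.47 and 1.69 CPM at 20 mg/L. It fell by 3.64 ± 0.80 (adjusted p = 0.0174), and by 3.78 ± 0.79 at 10 mg/L (adjusted p = 0.035), where the runs are those of the control. The call at 20 mg/L was lost without control D or 20 mg/L B (0.0173 to 0.0647). It was the 1 call among 6 sterol and fatty acid synthesis transcripts. A transmembrane protein 43-like transcript had 34.3, 22.8, 20.3 and 48.5 CPM in the control and 11.1, 2.16, 0 and 0.921 CPM at 20 mg/L, a fall of 3.14 ± 0.85 (adjusted p = 0.0492). The call held only without 20 mg/L A (0.00367 to 0.136), and the level was 18.8 to 39.7 CPM at 10 mg/L and 11.4 to 34.8 CPM at 40 mg/L. The zinc finger protein ZNF618, isoform X3, fell by 2.04 ± 0.54 (adjusted p = 0.0438), from 27.1 to 30.4 CPM to 3.17 to 10.7 CPM, with 4.88 to 16.3 CPM at 10 mg/L. Its call, too, was lost whichever of the 8 libraries compared was left out (0.0587 to 0.137). This transcript is also 1 of 2 of its name, between which reads may be divided.

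The transcripts called between 20 and 10 mg/L were of 2 kinds. A-kinase anchor protein 13 (AKAP13), a scaffold protein, had 40.2, 44.7, 36.1 and 27.1 CPM in the control, 20.0, 30.1, 25.1 and 24.3 CPM at 10 mg/L and 6.48, 7.04, 10.6 and 7.67 CPM at 20 mg/L. The 20 mg/L libraries lay below all others, a fall of 2.22 ± 0.21 against the control (adjusted p = 7.46e-05) and of 1.65 ± 0.21 against 10 mg/L (adjusted p = 0.00586). Its level at 40 mg/L, in the same run set as 20 mg/L, was 18.0 to 26.1 CPM. That was called higher than at 20 mg/L (1.39 ± 0.21, adjusted p = 0.0105). A transcript matched only to a hypothetical Xenopus protein fell at 20 mg/L by 2.26 ± 0.21 against the control and 1.66 ± 0.20 against 10 mg/L (adjusted p = 7.46e-05 and 0.00586). It had 498 to 749 CPM in the control, 359 to 451 CPM at 10 mg/L, 88.9 to 182 CPM at 20 mg/L and 62.4 to 93.5 CPM at 40 mg/L. Transmembrane 4 superfamily member 4 differed in kind, since it rose at 10 mg/L (0.81 ± 0.11, adjusted p = 0.003) and was not called at 20 mg/L (-0.32 ± 0.11, adjusted p = 0.117). It had 276 to 330.5 CPM in the control, 448 to 577 CPM at 10 mg/L and 215 to 269 CPM at 20 mg/L, a difference between the doses of -1.13 ± 0.11 (adjusted p = 0.00107). At 40 mg/L it had 167 to 226 CPM and was called lower than the control (-0.66 ± 0.11, adjusted p = 0.00206). For all 3, the 20 and 10 mg/L groups also differ in run set, and the dose and the run set cannot be told apart.

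The levels were also set beside the 12 unexposed libraries of the other 3 experiments, on 1 TMM scale over those libraries and the 16 IMX-101 libraries, taken from the deposited per-library values. The experiments had controls of their own and differ in more than exposure, so this is a description. The cytochrome P450 transcript had 5.25 to 60.2 CPM in those 12 libraries and 154 to 550.3 CPM at 20 mg/L. The cystine/glutamate transporter had 2.93 to 9.61 CPM there and 16.9 to 24.8 CPM at 20 mg/L. PDZ and LIM domain protein 5, at 4.28 to 7.09 CPM at 20 mg/L, had 41.9 to 79.6 CPM in the TNT controls. It had 2.28 to 8.46 CPM in the MeNQ and NQ controls. Zinc transporter 8, at 19.1 to 30.3 CPM at 20 mg/L, had 23.4 to 39.4 CPM in the TNT controls and 6.95 to 20.8 CPM in the others. Of the 12 largest rises, 5 had all 4 exposed libraries above all 12 unexposed libraries, and of the 12 largest falls 2 had all 4 below. The 2 counts cannot be compared, because several falls could not lie below. The multiple PDZ domain protein, FAM198A, USP36, RNF182-like, creatine transporter and ZNF618 transcripts reached 0 CPM among these unexposed libraries. Hemoglobin alpha-3, at 1809 to 2853 CPM at 20 mg/L on that scale, lay inside the range of 1671 to 14233 CPM that these unexposed libraries span. MCM7 did so too, with 372 to 468 CPM inside 69.0 to 974 CPM. For hemoglobin alpha-3 only the TNT controls, at 1671 to 4418 CPM, overlapped the 20 mg/L libraries. The MeNQ controls (6965 to 14233 CPM) and NQ controls (11578 to 12611 CPM) all lay above them.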

How the data were processed

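RNA from pools of 5 whole tadpoles was sequenced, 4 pools per group. Per the submitters' processing notes, reads were demultiplexed with bcl2fastq 1.8.4 and quantified with Salmon. The sources used here give neither its version nor its index. The deposited values are estimated counts per transcript and sequencing run. The deposited per-library table is the mean of the runs. From these, the runs of a library were summed and rounded to whole numbers. The table's 110 run columns of other exposures were not used. The 12 unexposed libraries of other experiments come from their per-library tables.

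All 16 IMX-101 libraries entered 1 edgeR 4.0.16 quasi-likelihood model (R 4.3.3), with filterByExpr, TMM scaling and Benjamini-Hochberg adjustment. The standard error is the log2 fold change divided by the root of the F statistic. Depths were 5.57 to 18.0 M counts. Floors of 3 counts cover counting error only, and rounding and the division of reads between like transcripts add error that was not estimated.

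The members and lists were chosen with earlier results of these data known. The 12 largest rises and 12 largest falls were named among called, non-overlapping transcripts with a specific protein name averaging at least 1 CPM. Up to 3 members per list by smallest adjusted p, and the transcripts called between 20 and 10 mg/L, were named too. Others were added after their values were seen: further members of a list described and the uncalled p53, Mdm2, KEAP1 and isoform comparisons. The rule also names uncalled members, and those of most lists without a call, and some of other lists, are given as counts only. Alternatives were DESeq2 1.42.0, other scaling, filters, run choices, a 2-fold minimum, a replicate block and leaving out each library.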

Additional observations from a re-analysis of the deposited data

Results flagged for a closer look

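Between 20 and 10 mg/L the effects on 3 transcripts differed by the test of the difference itself. These were AKAP13 (-1.65, adjusted p = 0.00586 in edgeR), a transcript matched to a hypothetical protein (-1.66, adjusted p = 0.00586) and transmembrane 4 superfamily member 4 (-1.13, adjusted p = 0.00107), on the log2 scale. The 2 groups also differ in run set, and dose and run set cannot be told apart.

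In some groups of 4 libraries, 1 library stood apart from the other 3 by Dixon's criterion. Chance flags about 1 group in 20, and here 14 of 280 groups (5.0%) were flagged. Among exposed libraries, 20 mg/L D had 6.75 CPM of kal1 and 1.53 CPM of the creatine transporter, both above the rest of its group. Library A had 58.0 CPM of CDC6, above the rest, and 236 CPM of the chaperone DNAJC12-like and 126 CPM of a type II keratin-like transcript, both below the rest. Library B had 291 CPM of multidrug resistance protein 1-like and 1934 CPM of collagen alpha-1(III) chain-like, both below the rest, and library C had 4.40 CPM of PDZ and LIM domain protein 5, also below.

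Among controls, B had 10739.7 CPM of hemoglobin alpha-3 and 408 CPM of hemoglobin beta-2-like, both high for the group. Control C was high in mucin-2 (12.97 CPM) and gamma-crystallin 1 isoform X2 (833 CPM). Control A was low in melanopsin (12.8 CPM) and high in thyroid hormone receptor alpha-A (12.6 CPM).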

How the results depend on the processing

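The count of calls at 20 mg/L (654) was 1352 with DESeq2's Wald test, 5 with a 2-fold minimum, 264 when only the 8 libraries compared were fitted, 354 with counts summed by protein name, and 317 to 721 with 1 library left out. At 10 mg/L the 124 calls became 505, 2, 46, 66 and 44 to 98 in the same order. Between 20 and 10 mg/L the 3 calls became 131 with the Wald test, 0 with the 2-fold minimum in edgeR's glmTreat (236 at an unadjusted p under 0.05) and 3 to 20 with 1 library left out. Fewer libraries entered the fits with 8 libraries and with a library left out, and fewer features entered the fit with summed names. Without 1 of the 20 mg/L libraries, 13241 to 13248 transcripts were tested, more than the 12542 of the full fit. The cause of the changed counts was not tested for any of these settings or for the Wald test. Deviations of same-letter control and 20 mg/L libraries correlated at -0.0386 to 0.0136, and those of different letters at -0.0236 to 0.0443. No pairing by replicate letter was seen, but values near 0 cannot show how the beakers were arranged. A replicate block gave 368 calls at 20 mg/L and 41 at 10 mg/L. With that block, 41 of the named calls at 20 mg/L were lost and 76 were kept. At 20 mg/L other settings stayed within 1.5 times, at 664 with DESeq2 size factors, 527 with no filter, 684 with the deposited means and 610 with the deepest run. The first-listed run of each library, chosen after seeing the data, gave 540. Over the transcripts named, 2011 values kept their side of the threshold, 481 lost the call, 16 gained it and none reversed. With only the 8 libraries compared in the fit, 46 of the named calls were lost and 70 were kept. A run set term could not be fitted, and leaving out libraries of 1 run removes the whole 20 mg/L group. Exposed libraries hold fewer counts, which limits low transcripts most.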

Other observations

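Among transcripts without a specific protein name, or named only by a clone, 3 were chosen after their values were seen. A transcript matched to a hypothetical protein had 2687, 2171, 1129 and 3036 CPM in the control and 165, 132, 233 and 89.5 CPM at 20 mg/L. It fell by 3.87 ± 0.66 (adjusted p = 0.0042 in edgeR), stood at 372 to 704 CPM at 10 mg/L and at 11.9 to 140.4 CPM at 40 mg/L. In the 12 unexposed libraries of the other experiments it ranged from 42.7 to 2996 CPM.

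The transcript named MGC154673 protein had 201, 323, 299.5 and 204 CPM in the control and 803, 834, 905 and 855 CPM at 20 mg/L, without overlap. It rose by 1.73 ± 0.15 (adjusted p = 7.41e-05 in edgeR), beside 1.13 at 10 mg/L. Another transcript matched to a hypothetical protein had 10.2 to 18.6 CPM in the control and 50.04 to 114 CPM at 20 mg/L. It rose by 2.59 ± 0.32 (adjusted p = 0.000503), less than its 3.51 at 10 mg/L, and the difference between these doses was not called.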
